A study of Homo sapiens with 6 samples.

Results

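The genes described here are 10 members of the epidermal growth factor (EGF) signalling system, found by their symbols in a table of 28395 genes measured by RNA-seq in A375 cells, a human melanoma line. They are the 6 ligand genes HBEGF, AREG, EREG, TGFA, BTC and NRG1, the receptor genes ERBB2 and ERBB3, and the inhibitor genes ERRFI1 and LRIG1, and all 10 symbols were found. The study cultured wild-type A375 cells for 6 h with ozonated olive oil (OZO) or with olive oil (OLO, the control), each at 0.01%, and made 3 libraries of each group. The values below are means over all 6 libraries, so they describe the level of each gene in oil-treated A375 cells, with both groups weighing alike on the log scale, and no comparison of OZO with OLO was made. Per-library values are not used here, and a mean over the libraries carries no SD.

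EGF-type ligands are made as membrane proteins, and sheddases of the ADAM family cut them loose so that they can bind receptors on the same or neighbouring cells. AREG and TGFA bind EGFR. HBEGF, BTC and EREG bind both EGFR and ERBB4, and NRG1 binds ERBB3 and ERBB4. ERBB2 has no known ligand of its own and acts as the partner of the other receptors, while ERBB3 has a weak kinase and signals through its partners. ERRFI1 (also known as MIG6) binds the kinase domain of active receptors and blocks it, and LRIG1 is a membrane protein that favours the degradation of ERBB receptors. In melanocytic cells, ERBB3 and its ligand NRG1 are known for their part in growth signalling.

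The depth behind these levels was read from the table itself. The lowest mean in it belongs to 7012 genes without a read in any library, from which the libraries had a size of 18409902 counted fragments as their geometric mean. At that size 1 read is worth 0.0543 CPM, the count scaled to a common library total. At least 1 read was found for 21383 genes, and 13773 genes had an implied mean of at least 10 reads per library. Implied reads are the geometric mean over the 6 libraries, which lies below the arithmetic mean where libraries differ. The label of the cells was set beside marker genes. The melanocytic factors SOX10 and MITF had means of 49.9 and 27.1 CPM. S100B, S100A1 and MLANA had 2.80, 2.55 and 2.01 CPM. The pigment genes PMEL and DCT had 0.339 and 0.285 CPM (5.75 and 4.74 implied reads), and TYR had no read. Of the 8 melanocyte markers looked at, 5 had at least 10 implied reads. All 4 markers known for melanoma cells with low pigment genes had at least 10 implied reads, with 2071 CPM for VIM, 267 for AXL, 37.8 for NGFR and 4.64 for SOX9. Leukocyte markers were near 0, with 1.07 implied reads for PTPRC and 0.10 for CD3E. Of the keratinocyte markers KRT1 had no read, KRT5 had 1.56 implied reads and KRT14 had 77.5 (4.24 CPM). The highest endothelial, epithelial or fibroblast marker was PDGFRB with 5.55 CPM (102 implied reads). COL1A1, PECAM1 and EPCAM had 22.3, 19.5 and 12.9 implied reads. Like KRT14 and PDGFRB, these 3 genes passed the limit of 10 implied reads, as did 13773 of all 28395 genes. Passing that limit therefore does not by itself identify a cell type.

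Members of the group ranged from 0.203 CPM for EREG to 325 CPM for ERRFI1. Their median was 20.1 CPM, against 3.89 CPM over all genes with a read and 22.1 CPM over genes with at least 10 implied reads. Of the 10 members, 9 had at least 10 implied reads, as did 13773 of the 21383 genes with a read. The exception was EREG. The percentile used below is the share of genes with a read whose mean was lower, and the median percentile of the members was 66.5.

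**Figure D1:**
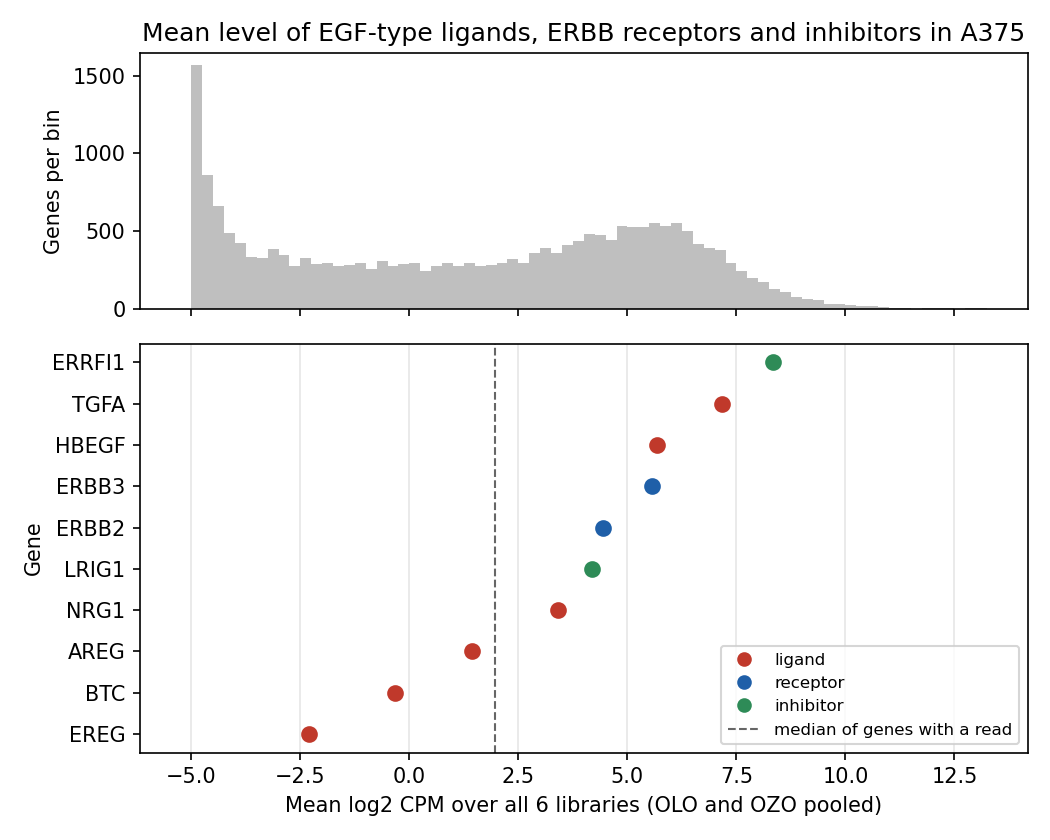
Mean level of each member as log2 CPM over the 6 libraries, OLO and OZO pooled (lower panel, 1 point per gene, coloured by role), under the distribution of all 21383 genes with a read (upper panel, genes per bin of 0.25). ERRFI1 stood highest at 8.34 and EREG lowest at −2.30, and AREG, BTC and EREG lay left of the median of genes with a read, 1.96; the values are not divided by gene length.

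Levels of different genes were compared per length, as CPM per kilobase (kb) of annotated exon, because a longer mRNA yields more fragments. The ligands spanned the widest range of the roles. TGFA, on chromosome 2 (70447284 to 70554193, minus strand), was the highest ligand with a mean log2 CPM of 7.17, which is 144 CPM, an implied 2644 reads per library and the 92.6th percentile. Per length TGFA reached 29.2 CPM per kb. HBEGF, on chromosome 5 (140332843 to 140346603, minus strand), had a mean log2 CPM of 5.67, an implied 937 reads and 17.0 CPM per kb. Per length TGFA was thus 1.72-fold above HBEGF. Together these 2 genes carried most of the ligand mRNA, with TGFA at 59.9% and HBEGF at 34.9% of the CPM per kb summed over the 6 ligands.

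The other ligands were lower by a wide margin. AREG, which encodes amphiregulin, had a mean log2 CPM of 1.45, an implied 49.7 reads per library and 1.66 CPM per kb, 10.3-fold below HBEGF. NRG1, which encodes neuregulin 1, stood higher by reads, with an implied 195 per library, but its exons cover 21372 bases over 35 annotated transcripts. Divided by that length NRG1 was at 0.498 CPM per kb, and by its longest transcript of 12518 bases at 0.850 CPM per kb. AREG was above NRG1 on both lengths and below it without division by length. Which NRG1 transcripts these cells made is not known from the means, and a shorter one would raise NRG1 per kb. BTC, which encodes betacellulin, had an implied 14.1 reads per library and 0.299 CPM per kb.

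EREG, which encodes epiregulin, was the lowest member. Its mean log2 CPM was −2.30, the 27.6th percentile, with an implied 3.25 reads per library and 0.0356 CPM per kb. Because 0.5 is added to each count before the logarithm, the mean of a gene fixes the product over the libraries of its count plus 0.5, which, with each factor doubled, is a whole odd number. For EREG this whole number was 176715, which holds the prime 17. At least 1 library therefore had 8 reads or more of EREG and at least 1 had at most 1 read, and the 6 libraries together held at least 23 reads. For BTC the largest prime of that number was 43, so that at least 1 library had 21 reads or more, at least 1 had at most 6, and the 6 libraries held at least 91. Which group these libraries belong to is not given by the mean. EREG and BTC were thus detected, at a depth where single reads move the level.

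The receptors lay close together and below the 2 leading ligands. ERBB3, on chromosome 12 (56076799 to 56103505, plus strand), had a mean log2 CPM of 5.56, an implied 869 reads per library and the 78.2nd percentile. ERBB2, on chromosome 17 (39687914 to 39730426, plus strand), had a mean log2 CPM of 4.45, an implied 401 reads and the 67.6th percentile. Per length ERBB3 stood at 4.03 and ERBB2 at 2.11 CPM per kb, a 1.91-fold difference. On the longest transcript they stood at 7.54 and 4.42 CPM per kb, a 1.71-fold difference, so their levels depend on the length chosen more than their ratio does. Both have a like number of exons, with 28 in the canonical transcript of ERBB3 and 27 in that of ERBB2. HBEGF mRNA was 4.22-fold above ERBB3 per exon length and 2.87-fold on the longest transcript, although their reads were close (937 and 869).

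Between the inhibitors the gap was wide. ERRFI1, on chromosome 1 (8004404 to 8026309, minus strand), was the highest of the 10 members, with a mean log2 CPM of 8.34, 325 CPM and an implied 5982 reads per library. It stood at the 97.6th percentile of genes with a read, and per length at 77.8 CPM per kb it was 2.66-fold above TGFA. LRIG1, on chromosome 3 (66378797 to 66501263, minus strand), had a mean log2 CPM of 4.20, an implied 337 reads and 2.60 CPM per kb. ERRFI1 was 29.9-fold above LRIG1 per length.

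In order of CPM per kb of exon the members ran ERRFI1, TGFA, HBEGF, ERBB3, LRIG1, ERBB2, AREG, NRG1, BTC, EREG. The closest neighbours were LRIG1 and ERBB2, at a ratio of 1.23, and ERBB2 and AREG, at 1.27. The widest steps were from BTC to EREG, 8.40-fold, and from HBEGF to ERBB3, 4.22-fold. The size of the step to EREG rests on only 3.25 implied reads of EREG per library. Whether neighbours differ beyond the spread of the libraries could not be tested from pooled means. When the longest transcript was used as length, LRIG1 and ERBB2 changed places, the step from BTC to EREG stayed the widest at 6.79-fold, and the next widest was that from ERRFI1 to TGFA, 3.01-fold. ERBB2 then stood at 4.42 and AREG at 2.21 CPM per kb, with LRIG1 between them.

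**Figure D2:**
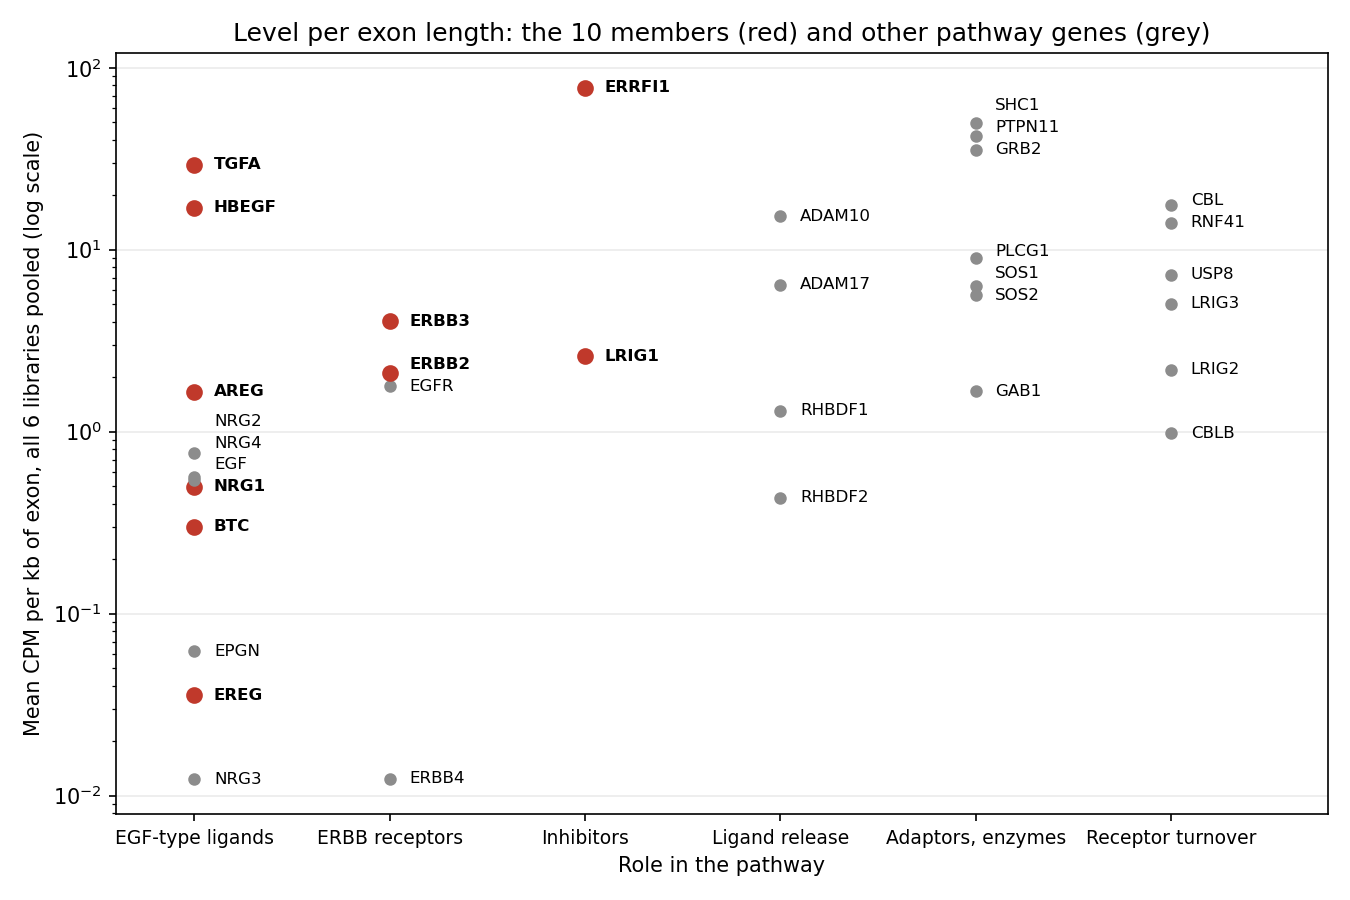
Mean CPM per kb of exon over the 6 pooled libraries, on a log axis, for the 10 members (red, bold names) and for other genes of the pathway (grey), in columns by role; each point is 1 gene, and names are moved apart where points are close. TGFA and HBEGF stood above every other ligand shown, EGFR lay beside ERBB2, and ERBB4 and NRG3 were lowest.

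The rest of the pathway was read from a list of 25 genes, all found in the table. Of these, 22 had at least 10 implied reads, against 13773 of the 21383 genes with a read. Their median was 5.05 CPM per kb, against 2.36 for the members and 1.32 for all genes with a read. Genes with at least 10 implied reads had a median of 4.47 CPM per kb, above that of the members. EGFR, the receptor of most of these ligands, had a mean of 28.3 CPM and 1.77 CPM per kb, near ERBB2 on exon length, and 2.86 against 4.42 CPM per kb on the longest transcript. ERBB4, which HBEGF, BTC, EREG and NRG1 can bind, had an implied 2.47 reads per library and 0.0124 CPM per kb. Among the 4 ERBB receptors, ERBB3 was therefore highest per length and ERBB4 lowest. The 5 further ligands were all under AREG per length, from 0.761 CPM per kb for NRG2 to 0.0123 for NRG3. EGF itself had an implied 75.2 reads.

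Of the listed genes that release, relay or end these signals, all but RHBDF1, RHBDF2 and CBLB lay above the median of genes with a read, 1.32 CPM per kb. The sheddases ADAM10 and ADAM17, the latter the main enzyme that releases TGFA, AREG and HBEGF, had 15.2 and 6.42 CPM per kb. RHBDF1 and RHBDF2, which encode the iRhom proteins that carry ADAM17 to the cell surface, had 1.30 and 0.434 CPM per kb. CD9, a tetraspanin known to associate with membrane-bound HBEGF, had 6.98 CPM per kb. The 7 adaptors and enzymes ran from 1.67 CPM per kb for GAB1 to 49.7 for SHC1. Of the genes of receptor turnover, the ubiquitin ligase genes CBL and RNF41, of which RNF41 acts on ERBB3, had 17.5 and 14.1 CPM per kb. LRIG2 and LRIG3, the paralogs of LRIG1, had 2.19 and 5.05 CPM per kb, so LRIG1 at 2.60 lay between them.

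Of the 4 weaker ligand genes, all but NRG1 are neighbours in the genome. EREG, AREG and BTC lie on chromosome 4 (hg38) with EPGN, the gene of epigen, in a stretch of 486 kb, and no other gene of the table with an exon annotation lies wholly inside it. EPGN (74308470 to 74316789, plus strand) is followed after 48.4 kb by EREG (74365145 to 74388749, plus strand), and after a further 56.4 kb by AREG (74445136 to 74455005, plus strand). BTC (74744759 to 74794523) lies 290 kb beyond AREG on the minus strand. EPGN was as low as EREG by reads, with an implied 3.28 against 3.25 per library, and per length stood at 0.0622 against 0.0356 CPM per kb. AREG was 46.6-fold above EREG per length, a ratio that rests on few reads of EREG. AREG stood highest in this stretch, with BTC next, while the neighbours EPGN and EREG were alike by reads. The ligand genes TGFA and HBEGF lie on other chromosomes.

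**Figure D3:**
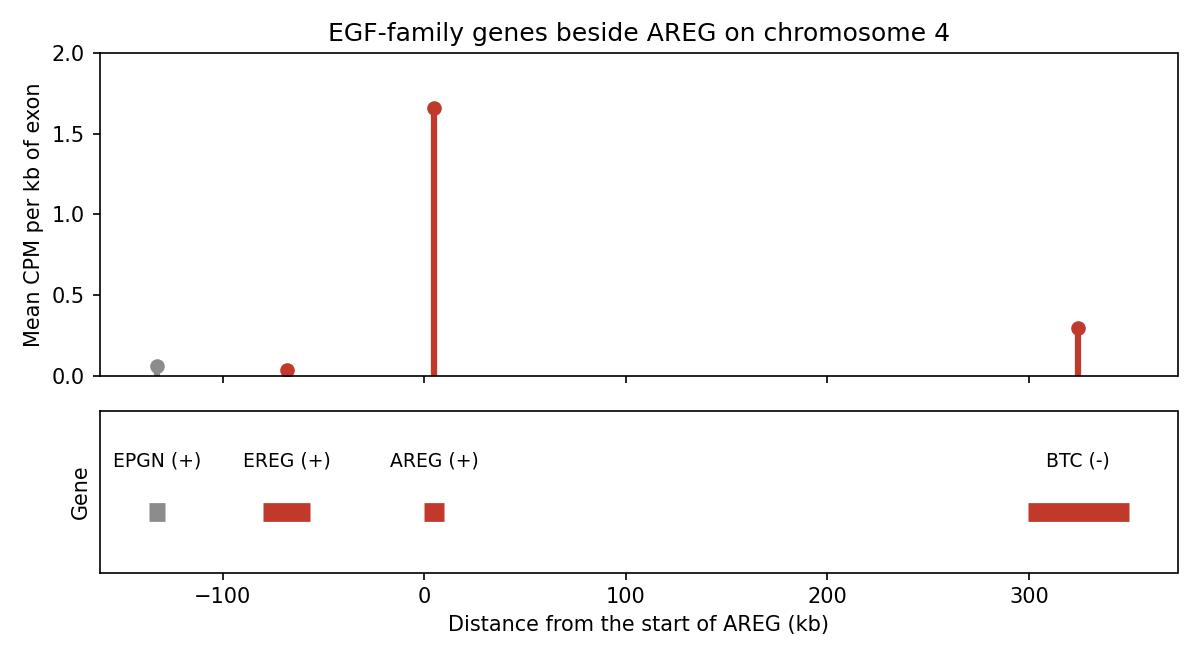
The 4 EGF-family genes on chromosome 4 by their distance in kb from the start of AREG (lower panel, bars to scale, strand in brackets) and their mean CPM per kb of exon over the 6 pooled libraries (upper panel, linear axis from 0). AREG stood at 1.66, BTC at 0.299, EPGN at 0.0622 and EREG at 0.0356.

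As examples, the 120 bases before the start of transcription are given for ERRFI1 and HBEGF, of high level, and for AREG and EREG, of lower level. They come from RefSeq (GRCh38.p14) and run 5′ to 3′ on the strand of the gene. Whether promoter sequence and level go together was not tested. Capitals mark matches on either strand to any of 5 motifs searched in the 250 bases before each start, namely a TATA box (TATAAA), a cAMP response element (TGACGTCA), an AP-1 site (TGANTCA), a GC box (GGGCGG) and an ETS site (CCGGAAGT).
ERRFI1, chr1:8026310-8026429, minus strand: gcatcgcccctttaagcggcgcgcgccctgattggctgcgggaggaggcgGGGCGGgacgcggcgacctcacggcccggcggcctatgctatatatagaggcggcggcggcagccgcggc
HBEGF, chr5:140346604-140346723, minus strand: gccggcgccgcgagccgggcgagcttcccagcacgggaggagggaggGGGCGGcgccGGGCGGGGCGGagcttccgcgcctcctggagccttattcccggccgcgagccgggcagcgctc
AREG, chr4:74445016-74445135, plus strand: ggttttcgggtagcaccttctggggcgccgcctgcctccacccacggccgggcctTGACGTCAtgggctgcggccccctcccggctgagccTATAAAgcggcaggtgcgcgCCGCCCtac
EREG, chr4:74365025-74365144, plus strand: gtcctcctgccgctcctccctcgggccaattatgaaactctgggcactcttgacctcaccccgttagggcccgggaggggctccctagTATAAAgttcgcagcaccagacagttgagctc

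Of the 10 members, 8 had an entry in the RefSeq promoter table, and ERBB3 and NRG1 had none. For TGFA and LRIG1, which have several listed starts, the first listed was used. The starts of TGFA, ERBB2 and LRIG1 lie 367, 180 and 142 bases inside the gene as GENCODE annotates it. All 250 bases of TGFA and part of those of ERBB2 and LRIG1 are thus within that gene. The other 5 starts coincide with the first base of their gene. AREG and EREG were the only ones of the 8 with the letters TATAAA, whose first base lies 29 bases before the start of AREG and 32 before that of EREG. The letters TATAAA were found in 11.1% of 27305 promoters of the same length. Only this exact run was counted as a TATA box, so the run tatatata in the printed bases of ERRFI1 was not counted. AREG also held the cAMP response element, 65 bases before its start, a motif present in 1.77% of all promoters. TGFA held 3 GC boxes and HBEGF 5, against at least 1 in 42.3% of all promoters, and LRIG1 held 3, AREG 1, ERRFI1 1 and EREG none. ERBB2 held an AP-1 site (6.60% of all promoters) and 2 ETS sites (3.64%), and BTC held none of the 5 motifs.

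In base composition, the 250 bases taken for the 3 highest members had like shares of G and C. Those of TGFA lie wholly within the gene as GENCODE annotates it. G and C made up 76.4% of the 250 bases in HBEGF, 75.6% in TGFA and 75.2% in ERRFI1, above 92.2%, 91.1% and 90.3% of all promoters. In EREG the share was 58.0%, equal to the median of all promoters, and in BTC 62.0%. The ratio of observed to expected CpG was 1.11 in ERRFI1, 0.907 in HBEGF and 0.759 in TGFA, and 0.530 in EREG and 0.353 in BTC, the 2 lowest of the 8 promoters. AREG, at 0.871, had a ratio above that of TGFA in spite of its lower level. ERBB2 had 0.856 and LRIG1 0.652, so LRIG1 lay below AREG in spite of its higher level. Over all genes matched by symbol the median ratio was 0.819 where a gene had at least 10 implied reads, as BTC did. It was 0.419 where a gene had fewer reads, as EREG did, and 0.25 where it had none. The letters TATAAA were held by 5.38%, 13.1% and 19.0% of the promoters of these genes, in the same order. A match of letters is a description of the sequence, and binding of any factor was not measured.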

How the data were processed

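RNA-seq was performed on A375 cells treated with OLO or OZO (n = 3 libraries each), as the labels state. The authors aligned reads to hg38 with HISAT2 2.1.0, counted them with featureCounts 2.1.1 and used limma-voom 3.58.1. Normalization factors, filters and the use of strand are not given in the sources used here. The values used are the deposited log2 CPM, the authors' mean over all 6 libraries, to which voom adds 0.5 per count. The other numeric columns of the table hold the authors' own comparison of OZO with OLO (fold change, moderated statistic, p, adjusted p and log odds) and were not used, so no test between groups was run.

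Library size and implied reads were derived from the distance of each mean to the lowest mean. Of the 12305 genes with a product under 20000, 100% fell on an odd whole number within 0.0001. On simulated counts the procedure returned the library size and read products that the counts were made with. Exon lengths came from GENCODE 44 (hg38) by Ensembl identifier, for 25497 genes. Promoters came from RefSeq (GRCh38.p14). Python 3.11.15, numpy 2.4.6 and pandas 2.3.3 were used. All 10 members are named whatever their values. The members and lists were chosen with earlier results of these data known.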

Additional observations from a re-analysis of the deposited data

How the results depend on the processing

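No paired analysis was possible because the values used are means over all libraries. For the same reason the planned count tests of OZO against OLO, filters on counts per library and leaving out each replicate were not run, and the planned identity between ligand proteins was not run. How far 1 library or 1 group sets a mean is unknown here, apart from the bounds on the reads of EREG and BTC given above. All 10 members had reads, also with more than 3 implied reads as the limit, and 9 had at least 10. The median percentile of the members, 66.5 among genes with a read, became 74.8 among all genes, 48.0 among genes with at least 10 implied reads and 57.2 per kb of exon. The median level per kb, 2.36, became 3.92 on the longest transcript and stayed at 2.35 with the added 0.5 taken off. In the order of the members, 2 changed places on the longest transcript (LRIG1 and ERBB2), and 4 had another place without division by length (those 2, AREG and NRG1). The implied library size was the same from the second lowest value of the table.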
